A study of Homo sapiens with 43 samples.

Results

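Mitosis and G2/M genes are 40 genes, chosen by symbol, whose products carry a cell from the end of DNA replication through chromosome segregation and cell division; all 40 were found among the 20052 genes of the count table. They were described here in HMC3, an established human line distributed as microglia, which had been exposed to a glucocorticoid for 3 days and then left for 3 further days without it. The 43 RNA-seq libraries fell into 17 groups. On day 3 there were groups given dexamethasone at 1 or 0.01 µM, hydrocortisone at 10 or 0.01 µM, the ethanol vehicle belonging to each of those 4 treatments, and untreated medium (3 libraries in each group). On day 6, after washout in normal medium, there were 3 libraries of each hormone and dose and 1 library of each of the 4 vehicles. The cells were all from a single passage of the line, every flask was collected individually, and flasks were reseeded on day 3 at a fixed number of viable cells. The p-values below therefore measure the spread between flasks of 1 cell line. In the main model that spread comes from the 13 groups of 3 libraries. The 4 day 6 vehicle groups of 1 library add nothing to it. Differences among those 4 libraries thus do not enter the error of the day 6 and between-day tests.

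Mitotic genes are transcribed late in the cell cycle. In resting cells and in early interphase the DREAM complex holds them down, and later the MYBL2-containing complex and FOXM1 switch them on, both through a short promoter element, the cell cycle genes homology region (CHR), often found with CCAAT boxes bound by NF-Y. Glucocorticoids act through the glucocorticoid receptor, a hormone-bound transcription factor, and in several cell types they raise the CDK inhibitor gene CDKN1A and lower the G1 cyclin gene CCND1. In bulk libraries a level is an average over all cells, so fewer dividing cells and less RNA per dividing cell cannot be told apart.

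Libraries held 7638840 to 24426643 counts, and 9.90% to 94.9% of these lay on 11 ribosomal RNA genes. In 7 libraries that share was above 75%: untreated replicate 3, dexamethasone 1 µM day 3 replicate 4, dexamethasone 0.01 µM day 3 replicate 3, the day 3 vehicle of dexamethasone 0.01 µM replicate 1, the day 3 vehicle of hydrocortisone 10 µM replicate 1, hydrocortisone 0.01 µM day 6 replicate 2 and the day 6 vehicle of dexamethasone 1 µM replicate 4. The 40 members together received 8518 to 148769 counts per library, the lowest in dexamethasone 0.01 µM day 3 replicate 3. Among microglia and macrophage markers, CSF1R, TREM2, CD68 and CD14 each had a median below 1 CPM (counts scaled to a common library size). Of 16 fibroblast and pericyte markers 14 were in the table and 10 had a median above 1 CPM, and the summed level of that list was 4001 to 6320 CPM. Values below are CPM after TMM scaling, which sets libraries to a common total by the bulk of their genes.

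Summed over the 40 members, the level was 3957 to 4698 CPM across all 43 libraries, with a median of 4398 CPM. Untreated cells had 4313 ± 85.5 CPM (SD, n = 3). Dexamethasone 1 µM gave 4495 ± 178 CPM against 4407 ± 187 CPM in its vehicle (SD, n = 3 each), and dexamethasone 0.01 µM gave 4346 ± 162 against 4415 ± 258 CPM. Hydrocortisone 10 µM gave 4525 ± 205 CPM against 4191 ± 258 CPM in its vehicle, and hydrocortisone 0.01 µM gave 4339 ± 101 against 4395 ± 36.1 CPM. The libraries of every treated group overlapped those of its own vehicle. After washout the 4 vehicle libraries lay between 4248 and 4578 CPM and the hormone libraries, pooled, between 4274 and 4684 CPM. Dexamethasone 1 µM (4511 to 4627 CPM) and 0.01 µM (4344 to 4684 CPM) lay above both dexamethasone vehicles (4342 and 4248 CPM). Hydrocortisone 0.01 µM (4274 to 4516 CPM) lay below both hydrocortisone vehicles (4578 and 4565 CPM), and hydrocortisone 10 µM (4312 to 4591 CPM) spanned them. Each hormone had only 2 vehicle libraries on day 6, and these sums were not tested.

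**Figure D1:**
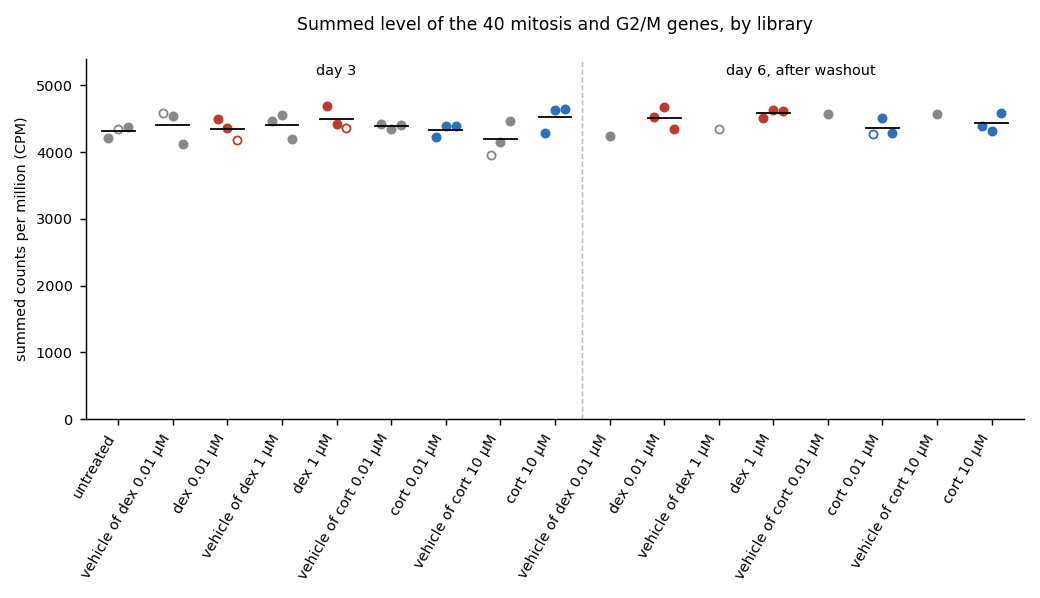
Summed CPM of the 40 genes (vertical axis, from 0) in each of the 43 libraries, by group (horizontal axis). Points are libraries, black lines group means, open points libraries with over 75% ribosomal counts, red dexamethasone, blue hydrocortisone, grey vehicle or untreated; "cort" is hydrocortisone. All points lie between 3957 and 4698 CPM.

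Per kilobase of exon the highest mean level was that of TPX2, the activator of the Aurora A kinase on the spindle, at 104 CPM per kb. CKS2, a small subunit that binds cyclin-dependent kinases, followed at 95.8 CPM per kb, and UBE2C, the ubiquitin-conjugating enzyme of the anaphase-promoting complex, at 93.1 CPM per kb. CCNB1 (cyclin B1) and TOP2A, the topoisomerase that untangles sister chromosomes, both stood at 78.4 CPM per kb. At the other end, CDC25C, a phosphatase that activates CDK1, had 4.38 CPM per kb.

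NUSAP1, a microtubule-bundling spindle protein gene, was the exception among the 40, with 1 to 24 counts per library and a median of 10. In GENCODE v29 another gene model on the same strand, AC087721.2, covers 62.2% of the exonic bases of NUSAP1; reads from that stretch could be split or dropped depending on the annotation, and that gene was not analysed here. NUSAP1 is therefore left out of ranges and intervals below, and its values are limited by counts. Of the other members, 26 of the 40 share no exonic base with another gene in that annotation.

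Member levels varied little from library to library. The median SD of log2 CPM over the 43 libraries was 0.113 for the 39 members without NUSAP1 and 0.146 for the 6072 tested genes at least as high as the lowest of them. TPX2 ranged only from 337 to 409 CPM, BIRC5 (survivin) from 144 to 183 CPM, and CDC20, the activator of the anaphase-promoting complex, from 66.2 to 88 CPM. MKI67, which encodes the proliferation antigen Ki-67, was the most variable, from 149 CPM in dexamethasone 0.01 µM day 6 replicate 1 to 396 CPM in replicate 3 of the day 3 vehicle of hydrocortisone 10 µM, a ratio of 2.65. That spread sat within groups (SD of log2 0.299 within groups and 0.288 over all libraries), so MKI67 has the widest interval in the tests below.

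Promoters of the members share sequence that was not used to choose them. Windows from 250 bases before to 50 bases after a transcription start were found in RefSeq (GRCh38.p14) for 35 of the 40 members, 45 windows in all. The CHR letters TTTGAA or TTCGAA, on either strand, occurred in 64.4% of member windows and in 16.4% of all 35116 promoter windows. The letters CCAAT occurred in 66.7% against 34.6%, and both together in 51.1% against 6.4%; a long E2F-type match, GGCGGGAA, occurred in 4.4% against 3.2%. A match is a description of the letters and no evidence of a bound site. By gene, 26 of 35 members held a CHR match and 21 of 35 held CHR and CCAAT in 1 window. The stretches below come from the promoters of CDK1, the cyclin B genes, TOP2A and CENPF, members described in the comparisons that follow, and stop where an annotated exon begins; capitals mark TTTGAA and CCAAT matches on the strand of the gene or, as TTCAAA and ATTGG, on the other strand. In the first of the CDK1 windows (chr10:60778081-60778330, plus strand) the CHR match begins 161 bases before the start and the CCAAT 150 bases before it. In CCNB1 (chr5:69166900-69167009, plus strand) the printed stretch holds no match, and the window's CCAAT matches lie at -87 and -55, past it. In CCNB2 (chr15:59104896-59105077, plus strand) the CCAAT matches are at -244, -120 and -87, with another at -54 and the CHR match at -29 in the part not printed. In TOP2A (chr17:40417951-40418146, minus strand) CHR letters are at -194 and -151 and CCAAT letters at -244, -160 and -93, and in CENPF (chr1:214602945-214603194, plus strand) CCAAT letters are at -94, -58 and -33.
CDK1: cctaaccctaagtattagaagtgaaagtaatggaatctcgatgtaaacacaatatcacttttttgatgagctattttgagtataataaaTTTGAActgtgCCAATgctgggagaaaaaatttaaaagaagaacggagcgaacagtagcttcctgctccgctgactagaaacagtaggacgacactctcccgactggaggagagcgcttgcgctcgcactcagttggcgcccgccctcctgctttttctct
CCNB1: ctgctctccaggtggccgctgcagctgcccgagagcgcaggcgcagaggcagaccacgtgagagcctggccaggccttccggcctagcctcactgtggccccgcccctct
CCNB2: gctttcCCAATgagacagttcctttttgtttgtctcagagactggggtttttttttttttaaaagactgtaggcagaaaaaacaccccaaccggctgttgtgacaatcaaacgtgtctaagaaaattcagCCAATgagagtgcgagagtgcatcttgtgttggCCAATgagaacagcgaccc
TOP2A: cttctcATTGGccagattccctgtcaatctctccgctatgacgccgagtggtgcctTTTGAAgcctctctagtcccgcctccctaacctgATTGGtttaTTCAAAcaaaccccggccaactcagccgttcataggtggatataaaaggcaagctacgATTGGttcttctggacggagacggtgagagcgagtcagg
CENPF: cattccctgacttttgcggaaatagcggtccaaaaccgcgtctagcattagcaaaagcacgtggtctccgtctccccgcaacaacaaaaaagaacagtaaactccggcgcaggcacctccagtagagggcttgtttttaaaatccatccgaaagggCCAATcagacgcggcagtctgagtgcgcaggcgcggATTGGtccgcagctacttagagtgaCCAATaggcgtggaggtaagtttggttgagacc

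Dexamethasone at 1 µM for 3 days moved a few members up and a few down. CDC25B, GTSE1 and TOP2A rose and ECT2 and ANLN fell against the dexamethasone vehicle; 35 members did not pass edgeR's quasi-likelihood test at an adjusted p of 0.05 over all 16816 genes tested. Thus 3 of 40 members were called higher and 2 of 40 lower, where 10.4% of all tested genes were called higher and 12.3% lower, so members were called no more often than genes in general. The median log2 change was 0.02 for the members and 0.02 for all tested genes, and 22 members lay above 0.

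CDC25B (ENSG00000101224, chr20:3786772-3806121; GRCh38, with gene bounds here and below from GENCODE v29), the phosphatase that first activates CDK1 at the onset of mitosis, had 54.1, 50.5 and 54 CPM with dexamethasone 1 µM and 39.6, 40.3 and 39.3 CPM with its vehicle. The 2 sets of libraries did not overlap, and the change was 1.33-fold (log2 0.41, SE 0.08, adjusted p = 9.7e-05). The related phosphatase CDC25C and the cyclins did not pass: the log2 change was 0.06 for CDC25C (95% confidence interval -0.13 to 0.25), -0.11 for CCNB1 (-0.25 to 0.03) and 0.07 for CCNA2 (-0.08 to 0.21). CDK1 itself had 124, 124 and 103 CPM against 124, 139 and 125 CPM in the vehicle, which overlapped.

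ECT2 and ANLN, the only members filed here under cytokinesis, both fell. KIF20A, a kinesin of cytokinesis, and KIF23 are filed under kinesins and did not pass against this vehicle. Against all 12 vehicle libraries of day 3 both kinesins were called higher (log2 0.21 and 0.16, adjusted p = 0.00284 and 0.0169), with 14.2% of all tested genes. ECT2 (chr3:172750682-172821474), the exchange factor that switches on RhoA at the division plane, had 116, 112 and 106 CPM with dexamethasone 1 µM and 147, 147 and 140 CPM with vehicle. The libraries did not overlap and the fall was 1.3-fold (log2 -0.38, SE 0.07, adjusted p = 8e-05). ANLN, whose product anillin scaffolds the contractile ring, had 251, 236 and 225 CPM against 281, 288 and 259 CPM, again without overlap (log2 -0.22, SE 0.06, adjusted p = 0.0109). Without dexamethasone 1 µM replicate 4, one of the libraries with over 75% ribosomal counts, ANLN had an adjusted p of 0.0807, and without vehicle replicate 2 one of 0.0734, whereas ECT2 and CDC25B passed in all 9 alternative analyses and all 6 with 1 library left out.

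TOP2A (chr17:40388516-40417950) had 564, 556 and 531 CPM with dexamethasone 1 µM and 480, 476 and 455 CPM with vehicle. All treated libraries were above all vehicle libraries, a 1.17-fold rise (log2 0.23, SE 0.06, adjusted p = 0.00756); untreated libraries spanned 460 to 528 CPM, and against them the log2 difference was 0.16 with an adjusted p of 0.0665. GTSE1, a microtubule-binding protein gene of the G2 phase, had 31.4, 32.2 and 35.2 CPM against 27.3, 30.4 and 26.3 CPM (log2 0.23, SE 0.09, adjusted p = 0.0448). Its call was lost without dexamethasone replicate 3 or 4 or vehicle replicate 1 or 4 (adjusted p of 0.0653, 0.208, 0.125 and 0.177), with no filter on low counts, and without the libraries of over 75% ribosomal counts (adjusted p = 0.13).

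None of the 7 members that are mitotic kinases or checkpoint genes passed at this dose. The log2 change was -0.02 for PLK1 (95% confidence interval -0.18 to 0.15), the kinase that acts from mitotic entry to cytokinesis, and -0.05 for AURKA (-0.18 to 0.07), the Aurora A kinase of centrosomes and spindle poles. CDC20 changed by 0.05 (-0.12 to 0.22) and MKI67 by 0.22 (-0.27 to 0.70). For 35 of the 39 members without NUSAP1 the 95% interval lay wholly within a log2 change of 0.5 (1.41-fold) in either direction, and for all 39 within 1 (2-fold), so larger shifts of these genes lie outside what the intervals cover.

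**Figure D2:**
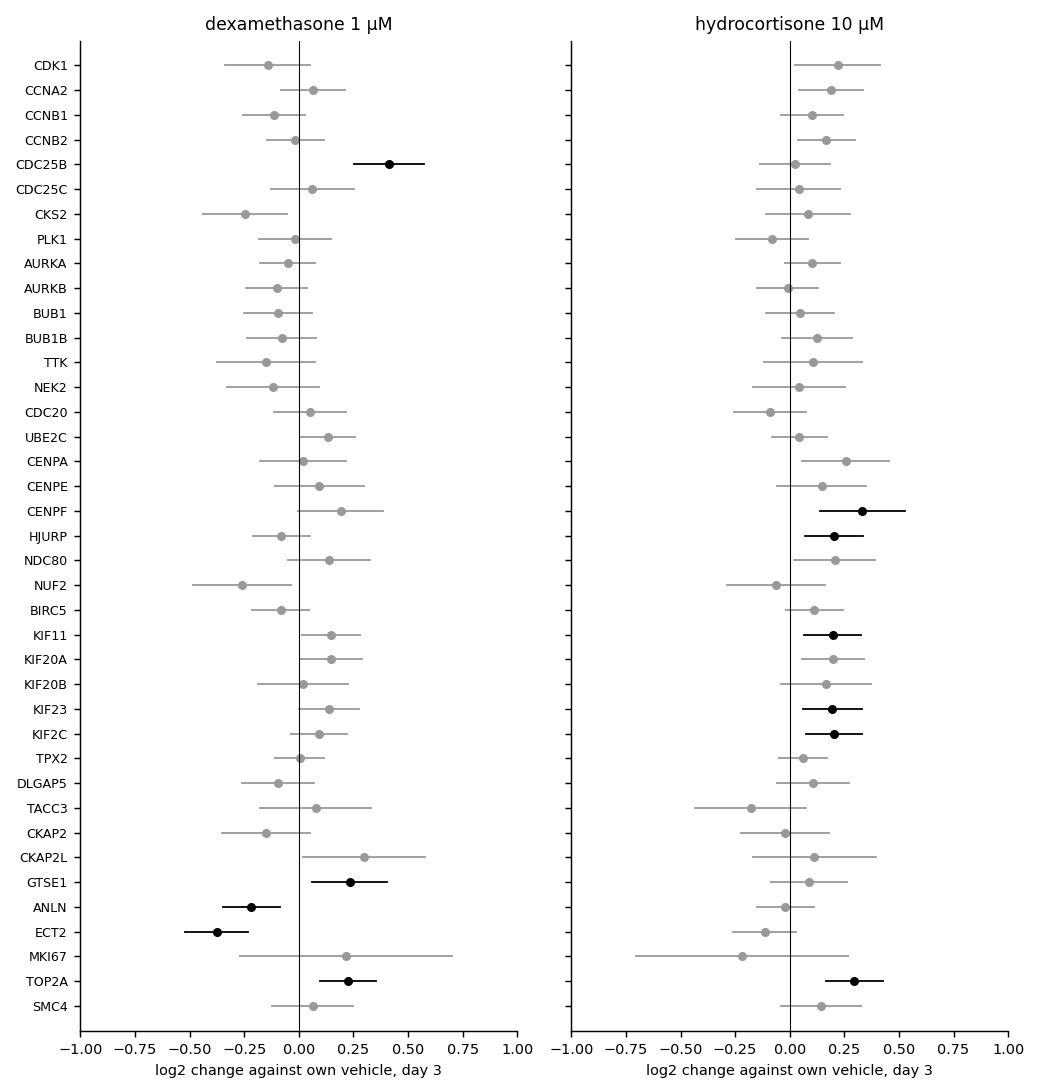
log2 change against own vehicle on day 3 (horizontal axis) for the 39 members other than NUSAP1 (vertical axis), with dexamethasone 1 µM on the left and hydrocortisone 10 µM on the right; doses differ, so the panels stand side by side. Points are estimates, bars 95% confidence intervals from edgeR, black where the adjusted p is below 0.05: 5 members on the left and 6 on the right.

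At 0.01 µM dexamethasone, CDC25B was called higher (1 of 40 members, with 6.15% of all tested genes called higher), and AURKA, NUF2 and ECT2 were called lower (3 of 40, with 7.84% of all tested genes called lower). The median log2 change of the members was -0.04, with 14 of 40 above 0, and that of all genes 0.00. CDK1 was at -0.11, CCNB1 and PLK1 at -0.08, CCNA2 at 0.06, CDC20 at -0.01, MKI67 at 0.12 and TOP2A at 0.13, with adjusted p of 0.193 to 0.945.

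CDC25B had 47.5, 47.5 and 62.3 CPM against 42.4, 40.4 and 41 CPM in the vehicle (log2 0.34, SE 0.08, adjusted p = 0.00175). ECT2 had 124, 119 and 92.7 CPM against 135, 133 and 135 CPM (log2 -0.27, SE 0.07, adjusted p = 0.00755). In both genes the treated and vehicle libraries did not overlap, and the outermost treated value was that of replicate 3.
AURKA had 158, 156 and 137 CPM against 187, 178 and 173 CPM (log2 -0.25, SE 0.06, adjusted p = 0.00307). NUF2, a subunit of the NDC80 complex that ties kinetochores to microtubules, had 18.4, 18.5 and 14.2 CPM against 24.5, 23.6 and 20.5 CPM (log2 -0.42, SE 0.11, adjusted p = 0.00692). Here too the groups were apart, with replicate 3 lowest.
Replicate 3 of this group had 94.9% ribosomal counts and only 8518 counts on the members. Without it 1 member passed (AURKA, adjusted p = 0.0493), where 5% of all tested genes were called higher and 6.06% lower. Without all 7 such libraries none did, where 3.81% of all genes were called higher and 5.25% lower. The log2 changes were then 0.21 for CDC25B (adjusted p = 0.104), -0.15 for ECT2 (adjusted p = 0.21), -0.17 for AURKA (adjusted p = 0.14) and -0.27 for NUF2 (adjusted p = 0.193). In a fit of only these groups of 3 against 3 none passed either, where 2.11% of all genes were called higher and 2.99% lower. Whether the ribosomal share has a part in these calls was not tested beyond these values.

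The doses of dexamethasone were compared directly, each against its own vehicle. No member passed on day 3, where 0.0476% of all tested genes did. Before adjustment, p was below 0.05 for 1089 of all 16816 genes tested and for 1 of 40 members, and DESeq2 called no member. That 1 member was AURKA, with a difference of 0.20 on the log2 scale (95% confidence interval 0.03 to 0.38, adjusted p = 0.68). For CDC25B the difference was 0.07 (-0.16 to 0.29) and for ECT2 -0.11 (-0.31 to 0.09). UBE2C was at 0.10, the count-limited NUSAP1 at 0.68, and of the core genes (CDK1, CCNB1, CCNA2, PLK1, AURKA, CDC20, MKI67 and TOP2A, given in every comparison) CDK1 was at -0.04, CCNB1 at -0.03, CCNA2 at 0.00, PLK1 and CDC20 at 0.06, and MKI67 and TOP2A at 0.10.

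Hydrocortisone at 10 µM, the natural hormone of which dexamethasone is a synthetic analogue, raised 6 members and lowered none. TOP2A, CENPF, KIF2C, HJURP, KIF11 and KIF23 passed (6 of 40 higher, with 5.58% of all tested genes called higher; 0 of 40 lower, with 7.5% of all genes called lower). The median log2 change was 0.10 for the members, of which 30 lay above 0, and 0.01 for all tested genes. Of the 6, KIF11, KIF23 and KIF2C are kinesins: KIF11 pushes spindle poles apart, KIF23 builds the central spindle, and KIF2C strips tubulin from microtubule ends at centromeres.

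TOP2A had 511, 574 and 615 CPM with hydrocortisone 10 µM against 418, 470 and 498 CPM with its vehicle. The libraries did not overlap and the rise was 1.23-fold (log2 0.30, SE 0.06, adjusted p = 0.00087); it held in all 9 alternatives and all 6 analyses with 1 library left out. CENPF (chr1:214603195-214664588), a large kinetochore protein gene, had 239, 276 and 281 CPM against 185, 200 and 246 CPM, where the lowest treated and highest vehicle libraries crossed (log2 0.33, SE 0.10, adjusted p = 0.0163).
HJURP, the chaperone that loads the centromeric histone CENPA, had 57.8, 60 and 55.3 CPM against 48.9, 49.8 and 51.8 CPM (log2 0.20, SE 0.07, adjusted p = 0.0321). KIF11 had 134, 139 and 146 CPM against 118, 127 and 120 CPM (log2 0.20, SE 0.07, adjusted p = 0.0388), and in neither gene did the groups overlap. KIF2C (98.2, 106 and 102 CPM against 83.1, 91.8 and 91.6 CPM) had a log2 change of 0.20 and KIF23 (140, 157 and 156 CPM against 117, 143 and 136 CPM) one of 0.19, with adjusted p of 0.0273 and 0.0475.

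All of these calls but that of TOP2A depended on single libraries. Replicate 1 of the hydrocortisone 10 µM vehicle had 91.4% ribosomal counts and the lowest summed member level of all libraries, 3957 CPM; without it TOP2A alone passed, as it did without the 7 libraries of over 75% ribosomal counts, without hydrocortisone replicate 3 and in a fit of only the groups compared. In those fits 3.49% to 4.72% of all tested genes were called higher and 5.47% to 7.65% lower. Without hydrocortisone replicate 4, 2 members passed (3.64% and 4.68% of all genes). DESeq2 called 3 (4.9% and 8.29% of all genes) and an analysis without ribosomal RNA genes called 3 (5.77% and 7.69%). Against all 12 vehicle libraries of day 3, 5 members were higher and 1 lower, with a median log2 change of 0.05, where 11.7% of all tested genes were higher and 12.4% lower; of the 6 only TOP2A and KIF11 were among them. Against untreated medium 6 were higher and 1 lower with a median of 0.04, where 7.96% of all genes were higher and 9.37% lower. The member called lower in both was ECT2 (log2 -0.24 with an adjusted p of 0.00128 and -0.30 with one of 0.00213). CDC25B was called higher against all vehicles (log2 0.20, adjusted p = 0.0119).

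Against its own vehicle ECT2 had 107, 111 and 123 CPM with hydrocortisone 10 µM and 122, 125 and 122 CPM with vehicle, which overlapped (log2 -0.11, 95% confidence interval -0.26 to 0.03). CDC25B had 47.6, 49.2 and 47.3 CPM against 52.2, 40.6 and 49 CPM (log2 0.02, interval -0.14 to 0.18), where the vehicle libraries spanned the treated ones. Among CDK1 and its cyclins the log2 changes were 0.22 for CDK1 (adjusted p = 0.134), 0.19 for CCNA2 (adjusted p = 0.0809), 0.17 for CCNB2 (adjusted p = 0.0809) and 0.10 for CCNB1 (adjusted p = 0.38), none past the threshold. PLK1 changed by -0.08, AURKA by 0.10, CDC20 by -0.09 and MKI67 by -0.22, also short of it. The replicate block kept the count at 6 but changed its content, with CCNA2 (adjusted p = 0.0337) and KIF20A (adjusted p = 0.0301) in place of KIF11 and KIF23.

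**Figure D3:**
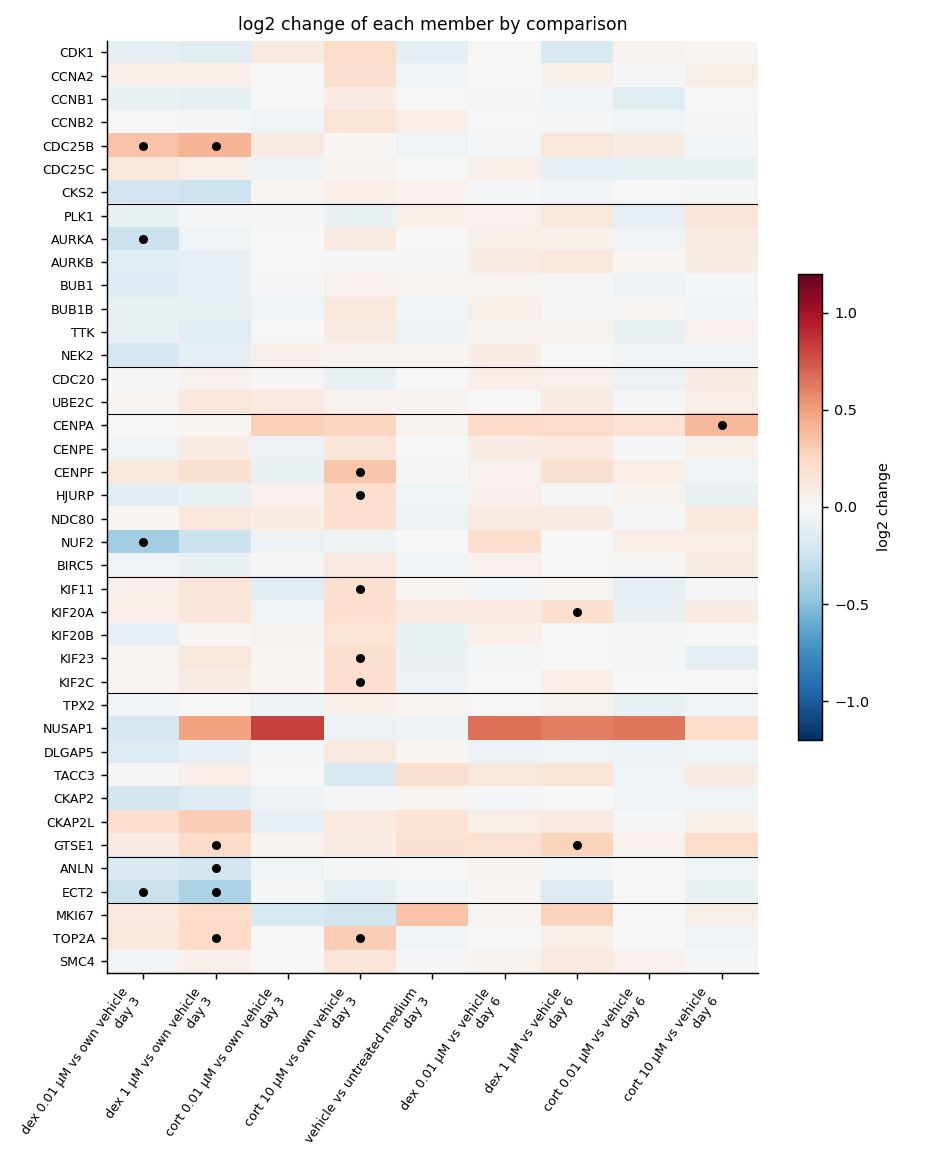
log2 change (colour) of each of the 40 members (rows, ordered by role with lines between roles) in 9 comparisons (columns), where "cort" is hydrocortisone; a black dot marks an adjusted p below 0.05 by edgeR. Apart from NUSAP1, which had 1 to 24 counts per library, changes stay between -0.42 and 0.41, and the marked cells are few in each column.

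Hydrocortisone at 0.01 µM left no member past the threshold, and 0% of all tested genes were called. By edgeR 2 of 40 members and 398 of all 16816 genes tested had an unadjusted p below 0.05, and DESeq2 called no member. CENPA, the histone H3 variant that marks centromeres, came closest with 21, 23.8 and 21 CPM against 17.1, 16.8 and 20.2 CPM (log2 0.29, 95% confidence interval 0.09 to 0.49, adjusted p = 1), and the second was the count-limited NUSAP1. TOP2A changed by 0.01 (-0.12 to 0.14), CCNB1 by 0.00 (-0.14 to 0.14), CCNA2 by 0.00 (-0.15 to 0.15), CDK1 by 0.11 (-0.09 to 0.30) and KIF11 by -0.12 (-0.26 to 0.01). PLK1 was at -0.01, AURKA at 0.01, CDC20 at 0.02 and MKI67 at -0.19. For 38 of 39 members the interval lay within 0.5 in either direction, MKI67 being the exception.

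At the dose the hormones had in common, 0.01 µM, dexamethasone and hydrocortisone were compared directly, each relative to its own vehicle. Dexamethasone carries a fluorine and a methyl that hydrocortisone lacks, with a further ring double bond. No member passed, while 4.98% of all tested genes did. Unadjusted p was below 0.05 for 6 of 40 members and 2811 of all 16816 genes tested, and DESeq2 called no member. AURKA came nearest, lower with dexamethasone by 0.26 on the log2 scale (95% confidence interval -0.44 to -0.08, adjusted p = 0.0777), followed by ECT2 at -0.24 (-0.45 to -0.04, adjusted p = 0.19) and NUF2 at -0.35 (-0.66 to -0.03, adjusted p = 0.242). CDC25B was at 0.24 (0.01 to 0.47, adjusted p = 0.268). Among the core genes CDK1 was at -0.21, CCNB1 at -0.08, CCNA2 at 0.06, PLK1 at -0.07, CDC20 at -0.03, MKI67 at 0.30 and TOP2A at 0.12. The intervals were within 0.5 in either direction for 33 of 39 members, and a p short of the threshold does not show that the hormones acted alike on these genes. Leaving out hydrocortisone 0.01 µM replicate 4 or dexamethasone 0.01 µM replicate 1 put 1 member past the threshold. Of all tested genes 2.25% were called higher and 3.38% lower in the first fit and 2.08% and 3.07% in the second.

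Ethanol itself was set against untreated medium over the 12 vehicle and 3 untreated libraries of day 3. No member passed, and 0% of all tested genes did. Unadjusted p was below 0.05 for 2 of 40 members and 903 of all 16816 genes tested, and DESeq2 called no member. The 2 members were GTSE1 (log2 0.19, 95% confidence interval 0.05 to 0.33, adjusted p = 0.852) and KIF20A, a kinesin of cytokinesis (log2 0.11, adjusted p = 0.924). Of the core genes CDK1 changed by -0.11 (-0.26 to 0.05) and CCNB1 by -0.01 (-0.12 to 0.10), CCNA2 and TOP2A by -0.05, PLK1 by 0.06, AURKA and CDC20 by 0.01 and MKI67 by 0.34. TACC3, a spindle protein gene, was at 0.19. GTSE1 libraries of the vehicles and of untreated medium overlapped.

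**Figure D4:**
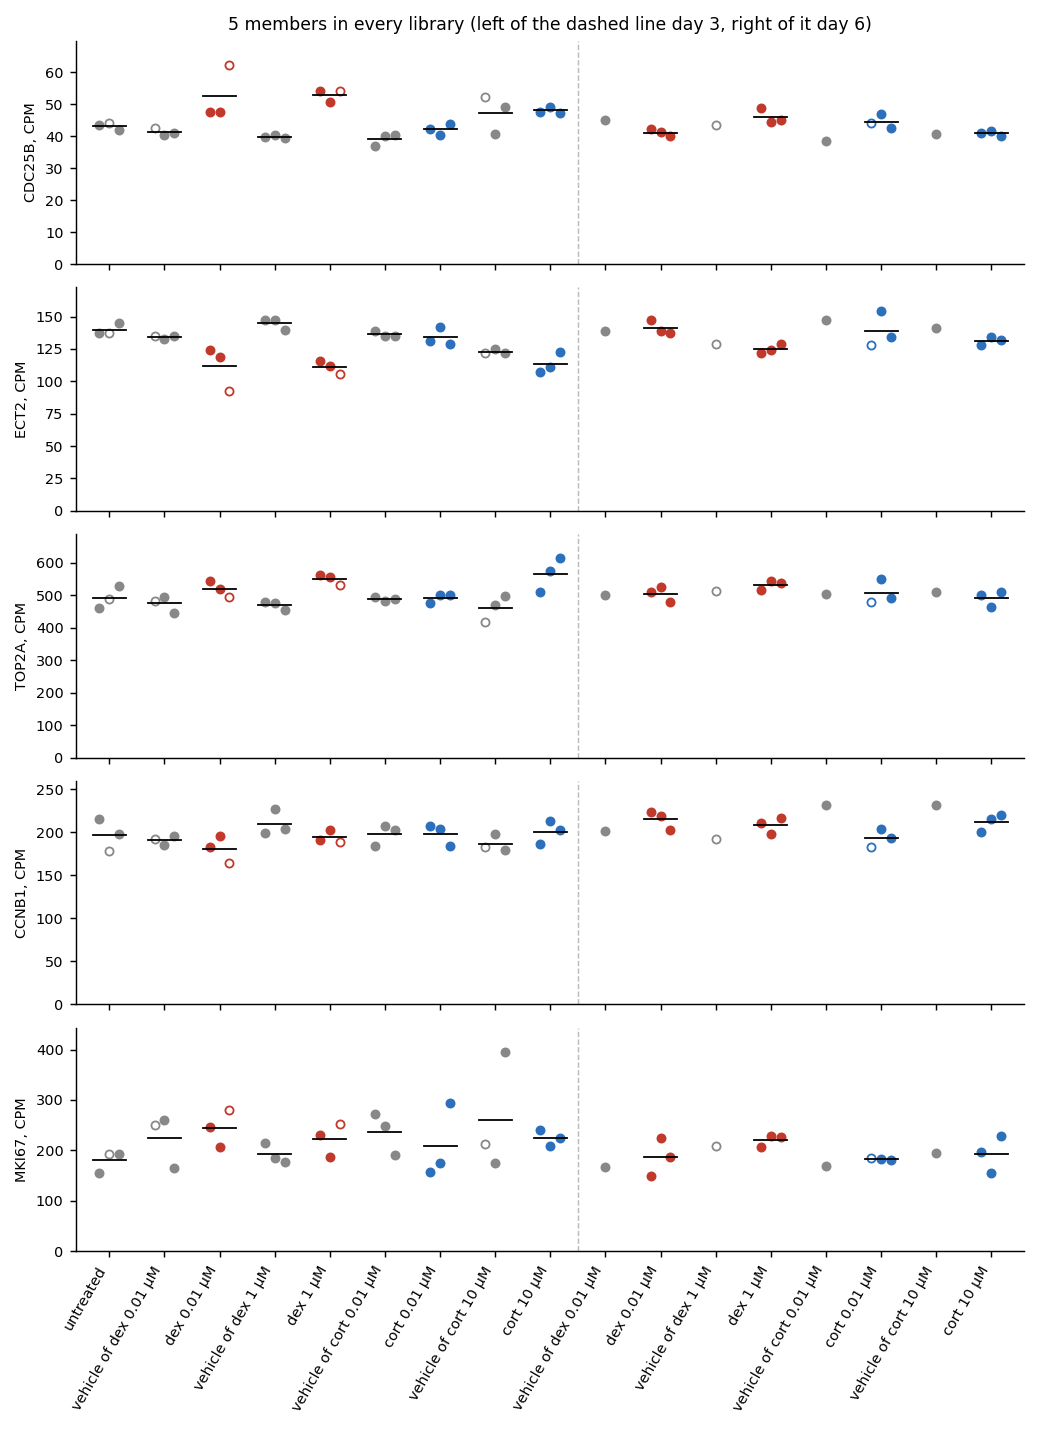
CPM (vertical axes, from 0) of CDC25B, ECT2, TOP2A, CCNB1 and MKI67 in every library by group (horizontal axis), with day 3 left and day 6 right of the dashed line. Points are libraries, black lines group means, open points libraries with over 75% ribosomal counts, red dexamethasone, blue hydrocortisone, grey vehicle or untreated. CDC25B reached 50.5 to 54.1 CPM with dexamethasone 1 µM on day 3 and MKI67 spread most within groups.

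CDKN1A and CCND1, which act in G1, changed by more than any of the 39 members with dexamethasone at either dose and with hydrocortisone 10 µM on day 3. In a list of CDK inhibitors, G1 cyclins and arrest genes, 7 of 24 tested genes rose and 4 fell with dexamethasone 1 µM, where 10.4% of all tested genes were called higher and 12.3% lower. CDKN1A, which encodes the CDK inhibitor p21, had 110, 115 and 101 CPM against 59.6, 52 and 56 CPM (log2 0.96, SE 0.11, adjusted p = 1.94e-09). CCND1 (cyclin D1) had 52.8, 62 and 62.3 CPM against 120, 119 and 145 CPM (log2 -1.12, SE 0.10, adjusted p = 2.51e-12). The treated libraries of both genes were far from the vehicle libraries, while the largest change among the 39 members was 0.41. With dexamethasone 0.01 µM CDKN1A changed by 0.58 (adjusted p = 7.58e-05) and CCND1 by -1.10 (adjusted p = 8.98e-12), with 5 of the list higher and 2 lower (6.15% and 7.84% of all genes). With hydrocortisone 10 µM they changed by 0.64 (adjusted p = 1.78e-05) and -1.15 (adjusted p = 2.34e-12), with 6 higher and 3 lower (5.58% and 7.5% of all genes). There CDKN1A had 105, 123 and 104 CPM against 73.6, 68.8 and 70.6 CPM. That vehicle was above the other day 3 vehicles (45.6 to 59.6 CPM) and untreated cells (52.6 to 59.1 CPM). The treated libraries overlapped those of dexamethasone 1 µM, so the smaller change does not show a lower level. These calls of CDKN1A and CCND1 held without the libraries of over 75% ribosomal counts and with any 1 library of the groups compared left out. With hydrocortisone 0.01 µM none of the list passed, CCND1 being at -0.13 and CDKN1A at 0.18. CDKN1B (p27) did not pass in any of these 4 comparisons, at 0.12, 0.07, 0.24 and 0.18.

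FOXM1 and MYBL2, which drive the mitotic genes, were called higher with dexamethasone 1 µM. FOXM1 rose by 0.24 on the log2 scale with dexamethasone 1 µM (adjusted p = 0.0052) and MYBL2 by 0.24 (adjusted p = 0.0448). The FOXM1 call held with any 1 library left out, whereas MYBL2 did not pass without dexamethasone replicate 2 or 4 or vehicle replicate 1 or 2 (adjusted p 0.102 to 0.172). With dexamethasone 0.01 µM MYBL2 had 221, 224 and 314 CPM against 210, 211 and 213 CPM (log2 0.26, adjusted p = 0.0425). The highest value was that of replicate 3, the library with 94.9% ribosomal counts, and without it the log2 change was 0.07 (adjusted p = 0.655); leaving out any 1 of the vehicle libraries also ended the call. FOXM1 was at 0.18 at that dose (adjusted p = 0.0651). With hydrocortisone 10 µM FOXM1 was at 0.12 (adjusted p = 0.254) and MYBL2 at 0.08 (adjusted p = 0.612). E2F1 did not pass in any of the 3, at 0.02, 0.12 and -0.07. Among 27 other G2/M regulators and DREAM or FOXM1 factors, those included, 4 rose and 1 fell with dexamethasone 1 µM. Of all tested genes 10.4% were called higher and 12.3% lower. Beside FOXM1 and MYBL2 the calls were WEE1 (0.41), the kinase that restrains CDK1, E2F2 (0.39) and CKS1B (-0.31). With dexamethasone 0.01 µM 2 rose and 1 fell (6.15% and 7.84% of all genes). None passed with hydrocortisone 10 µM (5.58% and 7.5% of all genes).

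In the other lists of mitotic machinery outside the 40, calls with dexamethasone 1 µM are to be read against the 10.4% of all tested genes called higher and 12.3% called lower. Of 31 other kinetochore and spindle checkpoint genes 3 rose and 5 fell, the smallest p among them being those of the checkpoint genes BUB3 (-0.33) and MAD2L1 (-0.36). Of 19 anaphase-promoting complex genes 3 rose and 1 fell, of 16 condensin and cohesin genes 2 fell, and of 28 further spindle, kinesin and cytokinesis genes 4 rose and 1 fell. Of 20 S-phase genes none rose and 4 fell, among them MCM6 (-0.23), a subunit of the replicative helicase, and CDC6 (-0.20), which helps to load it. Both were lost with several single libraries left out, with adjusted p up to 0.171 for MCM6 and 0.109 for CDC6; MAD2L1 was lost without dexamethasone replicate 4 (adjusted p = 0.0529). The median log2 change ran from -0.12 for the S-phase list to 0.06 for the further spindle list, against 0.02 for all genes. With hydrocortisone 10 µM, 5.58% of all tested genes were called higher and 7.5% lower. No S-phase and no condensin or cohesin gene passed there, and 3 of the 28 further spindle genes rose, KIF4A, STIL and SPAG5. Of these only SPAG5 passed without vehicle replicate 1, where KIF4A had an adjusted p of 0.149 and STIL one of 0.196; without vehicle replicate 2 SPAG5 had one of 0.0535.

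After washout the vehicles themselves were compared between days. No member passed between the 4 day 6 and the 12 day 3 vehicle libraries, where 0.505% of all tested genes did. Before adjustment, p was below 0.05 for 8 of 40 members and 1848 of all 16816 genes tested, and DESeq2 called no member. KIF23 came closest (log2 0.17, 95% confidence interval 0.07 to 0.26, adjusted p = 0.1) and TOP2A was at 0.10, with 501 to 515 CPM on day 6 and 418 to 498 CPM on day 3. KIF2C and CCNB1 were both at 0.12 and CDK1 at 0.13. MKI67 was at -0.31 (-0.66 to 0.04), CCNA2 and CDC20 at 0.04, AURKA at 0.06 and PLK1 at 0.00. Among the 4 day 6 libraries, which are 2 dexamethasone and 2 hydrocortisone vehicles, 22 of 40 members were higher in both hydrocortisone vehicles than in both dexamethasone vehicles, a pattern seen in 25.7% of all tested genes, and 2 of 40 were lower in both, against 21.5% of all genes. AURKA for example had 199 and 195 CPM in the former and 165 and 164 CPM in the latter, and CCNB2 84.5 and 84.8 against 64.1 and 68.3 CPM. This was looked at after the values were seen, it has 2 libraries a side and no test, and it bears on the day 6 comparisons below that use the mean of all 4.

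Cells that had been exposed to dexamethasone 1 µM had 2 members higher on day 6, KIF20A and GTSE1 (2 of 40, with 5.13% of all tested genes called higher), and none lower (5.03% of all genes called lower). KIF20A had 144, 139 and 145 CPM against 111 and 115 CPM in the dexamethasone vehicles and 135 and 138 CPM in the hydrocortisone vehicles (log2 0.20, SE 0.07, adjusted p = 0.0455). GTSE1 had 31, 31.4 and 30.7 CPM against 23.1, 27.2, 28.2 and 24.8 CPM (log2 0.27, SE 0.08, adjusted p = 0.022). Neither gene's treated libraries overlapped the vehicles, yet without the day 6 vehicle of dexamethasone 1 µM, replicate 4, with 77.1% ribosomal counts, neither passed (adjusted p 0.231 and 0.113), and neither passed when any 1 of the 3 treated libraries was left out. KIF20A was also lost without the day 6 vehicle of dexamethasone 0.01 µM (adjusted p = 0.15) and GTSE1 without that of hydrocortisone 0.01 µM (adjusted p = 0.0638). A comparison with the dexamethasone vehicles alone was chosen after seeing the data. There KIF20A (log2 0.33, adjusted p = 0.00498), GTSE1 (0.31, adjusted p = 0.0447) and CENPA (0.45, adjusted p = 0.00638) were called higher, with 3.5% of all tested genes.
The members called on day 3 other than GTSE1 did not pass on day 6. ECT2 had 122, 124 and 129 CPM against 129 to 147 CPM in the vehicles (log2 -0.15, 95% confidence interval -0.29 to -0.02, adjusted p = 0.156), TOP2A was at 0.07 (-0.05 to 0.19), and CDC25B had 48.7, 44.5 and 44.9 CPM in libraries that overlapped vehicles of 38.5 to 45.1 CPM. CDK1 was at -0.19, CCNB1 at -0.03, CCNA2 and AURKA at 0.06, PLK1 at 0.14, CDC20 at 0.05 and MKI67 at 0.27, none past the threshold. CDKN1A was also called on day 6 (log2 0.84, adjusted p = 2.59e-08) and so did CCND1 (-0.52, adjusted p = 6.13e-05).

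No member passed on day 6 after dexamethasone 0.01 µM, with 0.0833% of all tested genes called. An unadjusted p below 0.05 was found for 2 of 40 members and 1193 of all 16816 genes tested, and DESeq2 called no member. CENPA was at 0.23 (95% confidence interval 0.05 to 0.42) and GTSE1 at 0.18 (0.02 to 0.34), followed by NUF2 at 0.20. Against the dexamethasone vehicles alone CENPA was called higher (log2 0.46, adjusted p = 0.0477), with 0.238% of all tested genes. The core genes lay close to 0, with CDK1 and CCNB1 at 0.01, CCNA2 at 0.00, MKI67 at 0.03, PLK1 at 0.05, AURKA at 0.07, CDC20 at 0.08 and TOP2A at -0.0038. Between the doses of dexamethasone on day 6 no member passed either, with 3.13% of all genes called, and DESeq2 called no member. Unadjusted p was below 0.05 for 2021 of all 16816 genes tested and for 3 of 40 members. Those 3 members were ECT2 (-0.17 at the higher dose, -0.32 to -0.03, adjusted p = 0.263), CDC25B (0.17, 0.01 to 0.33, adjusted p = 0.389) and CDK1 (-0.19, adjusted p = 0.413). In each the groups of 3 libraries did not overlap. The genes were picked by smallest p, so the lack of overlap adds no support to them. CCNB1 was at -0.04, CCNA2 at 0.06, PLK1 and TOP2A at 0.08, AURKA at -0.01, CDC20 at -0.03 and MKI67 at 0.24.

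After hydrocortisone 10 µM only CENPA was called on day 6 (1 of 40 higher, with 0.422% of all tested genes called higher, and 0 of 40 lower, with 0.47% called lower). It had 19.9, 20.7 and 22.5 CPM against 18.6 and 19.1 CPM in the hydrocortisone vehicles and 13.4 and 13.9 CPM in the dexamethasone vehicles (log2 0.39, SE 0.09, adjusted p = 0.0199). Against the hydrocortisone vehicles alone the log2 difference was 0.16 (adjusted p = 0.711), and without the libraries of over 75% ribosomal counts it was 0.31 (adjusted p = 0.0821). The call also ended without hydrocortisone replicate 3 or 4, or without either dexamethasone vehicle, with adjusted p up to 0.235. CDK1 was at 0.02, CCNB1 at -0.01, CCNA2 and MKI67 at 0.07, PLK1 at 0.14, AURKA and CDC20 at 0.10 and TOP2A at -0.04. After hydrocortisone 0.01 µM no member passed, with 0.0892% of all genes called, and DESeq2 called no member. An unadjusted p below 0.05 was found for 1635 of all 16816 genes tested and for 1 of 40 members. That member was CCNB1 with 183, 204 and 194 CPM against 192 to 232 CPM (log2 -0.14, 95% confidence interval -0.28 to -0.01, adjusted p = 0.473). KIF11 was at -0.12 and CENPA at 0.17, and of the core genes CDK1 was at 0.04, CCNA2 at -0.02, PLK1 at -0.10, AURKA at -0.05, CDC20 at -0.07, MKI67 at -0.01 and TOP2A at 0.00.

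Whether an effect changed from day 3 to day 6 was tested as the difference between the days, each day set against all its vehicle libraries. For hydrocortisone 10 µM, TOP2A passed (1 of 40 lower, with 2.66% of all tested genes called lower; 0 of 40 higher, with 4.31% called higher). Its effect was smaller on day 6 than on day 3 by 0.30 on the log2 scale (log2 -0.30, SE 0.08, adjusted p = 0.0107). Hydrocortisone libraries went from 511, 574 and 615 CPM to 501, 463 and 510 CPM. Vehicle libraries were at 418 to 498 CPM on day 3 and 501 to 515 CPM on day 6, so the difference holds both shifts. Following the same flasks over both days, with flask as a block, the difference was -0.36 for TOP2A (adjusted p = 0.0227), and CENPF also passed at -0.37 (adjusted p = 0.0496). Of all tested genes 5.37% were called higher and 3.39% lower in that fit. Without hydrocortisone 10 µM day 3 replicate 4, or day 6 replicate 3, TOP2A no longer passed, the adjusted p reaching 0.0915. For KIF11 the difference was -0.22 (adjusted p = 0.087) and for KIF23 -0.21 (adjusted p = 0.112). CDK1 was at -0.08, CCNB1 at -0.04, CCNA2 at -0.09, PLK1 at 0.16, AURKA and MKI67 at 0.09 and CDC20 at 0.18.
For dexamethasone 1 µM no member passed, with 1.68% of all genes called, and DESeq2 called no member. Before adjustment, p was below 0.05 for 3 of 40 members and 1936 of all 16816 genes tested. CDC25C was at -0.33 (adjusted p = 0.161), AURKB at 0.18 (adjusted p = 0.387), and CDC25B was at -0.20 (95% confidence interval -0.40 to -0.01, adjusted p = 0.414), ECT2 at 0.12 (-0.06 to 0.30) and TOP2A at -0.14 (-0.30 to 0.02), so the loss or persistence of their day 3 changes was not resolved. CDK1 was at -0.17, CCNB1 at -0.02, CCNA2 at -0.07, PLK1 at 0.19, AURKA at 0.07, CDC20 at -0.05 and MKI67 at 0.29. CCND1 moved back by 0.78 (adjusted p = 2.34e-05) after dexamethasone and by 0.95 (adjusted p = 1.9e-07) after hydrocortisone, and CDKN1A fell back by 0.70 after hydrocortisone (log2 -0.70, adjusted p = 0.000192) and was at -0.11 after dexamethasone (adjusted p = 0.827). With dexamethasone 1 µM CDKN1A had 110, 115 and 101 CPM on day 3 and 98.9, 68.5 and 73.5 CPM on day 6. In the vehicles CDKN1A was also called lower on day 6 than on day 3 (log2 -0.33), so the -0.11 is relative to a lower vehicle level. The day 3 vehicles include that of hydrocortisone 10 µM, which was above the others at 68.8 to 73.6 CPM.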

How the data were processed

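RNA was sequenced from 43 flasks of HMC3 cells as stranded total RNA libraries. The authors deposited a table of raw counts per gene for 20052 genes; FastQC, STAR, featureCounts and Subread and build GRCh38 are named in the submitters' processing notes, and versions, strand setting and annotation release were not given in the sources used here. No column was left unused. Symbols came from a name table (17623 genes) or GENCODE v29 (75), with 2354 genes unnamed. Genes were filtered with filterByExpr (minimum count 10, minimum total 15), scaled by TMM and tested with edgeR 4.0.16 (quasi-likelihood, 1 model over 17 groups, 26 residual degrees of freedom, R 4.3.3) in 15 comparisons, with Benjamini-Hochberg adjustment over all 16816 genes tested. Standard errors are the log2 change over the root of the F statistic, and 95% intervals use the moderated degrees of freedom. The model was tested on simulated data. DESeq2 1.42.0 and the other settings in the closing section were alternatives. Part of the microglia and macrophage marker check is not reported here. Total counts were 7638840 to 24426643 per library.

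The members, gene lists and tests were chosen with earlier results of these data known. Named in every comparison were core genes (CDK1, CCNB1, CCNA2, PLK1, AURKA, CDC20, MKI67, TOP2A), each member that passed or else the 3 with the smallest p, and, in the day 3 hormone comparisons, 6 regulators (FOXM1, MYBL2, E2F1, CDKN1A, CDKN1B, CCND1) with up to 2 passing genes per list by smallest p; left-out-library fits of these were added after the data were seen; other names were chosen after their values were seen. Replicate numbers were checked for pairing: deviations from group means of same-numbered libraries correlated at -0.22 to 0.13 between hormone and own vehicle and at -0.20 to 0.20 between days, except for hydrocortisone 10 µM, at 0.17 to 0.23 in all 3 pairs; each flask was followed from day 3 to day 6 per the labels.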

Additional observations from a re-analysis of the deposited data

Results flagged for a closer look

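TOP2A is listed because its hydrocortisone 10 µM effect differed between day 3 and day 6 in a test of that difference (log2 change -0.30, SE 0.08, adjusted p = 0.0107 by edgeR's quasi-likelihood test). Its treated libraries were at 511, 574 and 615 CPM on day 3 and 501, 463 and 510 CPM on day 6. The vehicle libraries were at 418 to 498 CPM on day 3 and 501 to 515 CPM on day 6. A Dixon gap test on the 4 day 6 vehicle libraries looked for a single library far from the rest. It flagged none for any of the 40 members or for their sum. That test cannot see a split of the libraries into pairs. Such a split was seen: 22 of the 40 members were higher in both hydrocortisone vehicles than in both dexamethasone vehicles, and 2 were lower. Of all tested genes 25.7% were higher in this way and 21.5% lower. With 2 libraries a side no test was made. The gap test therefore does not show that the 4 libraries were alike.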

How the results depend on the processing

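Of the 19 calls of a member in a comparison, 3 passed under every alternative run: ECT2 and CDC25B with dexamethasone 1 µM and TOP2A with hydrocortisone 10 µM, each on day 3. No call changed direction. Of 109 counts under other settings, 96 stayed within 1.5 times the count reported. A count of 0 that stayed at 0 is among the 96. Of the 9 comparisons with no member called, 8 stayed at 0 in all these settings, so the 96 say little about the calls themselves. Dexamethasone 1 µM on day 3 had 10 members called against all 4 vehicle groups, where the 5 reported are among the 10 and 14.2% of all tested genes were higher and 14.5% lower. Dexamethasone 0.01 µM on day 3 had 0 without libraries of over 75% ribosomal counts and 0 in a fit of only the groups compared. Of all tested genes 3.81% were called higher and 5.25% lower in the first and 2.11% and 2.99% in the second. Hydrocortisone 10 µM on day 3 had 3 with DESeq2, 3 without ribosomal RNA genes, 1 without libraries of over 75% ribosomal counts and 1 in a fit of only the groups compared. In those fits 4.65% to 5.77% of all tested genes were called higher and 6.65% to 8.29% lower. On day 6, dexamethasone 1 µM had 1 with no filter, where 4.15% of all tested genes were higher and 3.68% lower. Without the high-ribosomal libraries it had 1 (6.37% and 5.6% of all genes) and hydrocortisone 10 µM had 0 (0.405% and 0.548%). The 2 vehicle libraries of the same hormone were also used, chosen after seeing the data. Against them hydrocortisone 10 µM had 0 (0.19% and 0.167%) and dexamethasone 0.01 µM had 1 (0.238% and 0.119%). The cause of these shifts was not tested.

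The replicate block kept every count of members as reported: 5, 4 and 6 for dexamethasone 1 and 0.01 µM and hydrocortisone 10 µM on day 3, 2 and 1 for dexamethasone 1 µM and hydrocortisone 10 µM on day 6, 1 for the change of hydrocortisone 10 µM between days (TOP2A, adjusted p = 0.0154), and 0 elsewhere; for hydrocortisone 10 µM on day 3, 4 of the 6 were genes called without it. With the replicate block 9.64% of all tested genes were higher and 11.8% lower for dexamethasone 1 µM on day 3. For dexamethasone 0.01 µM these were 6.28% and 7.92%, and for hydrocortisone 10 µM 5.06% and 6.87%. On day 6 they were 4.79% and 4.8% for dexamethasone 1 µM and 0.333% and 0.482% for hydrocortisone 10 µM. For the change of hydrocortisone 10 µM between days they were 4.46% and 2.8%. With flask as a block, chosen after seeing the data, that change had 2 members called (5.37% and 3.39% of all genes). With 1 library left out, counts on day 3 ran from 3 to 7 for dexamethasone 1 µM. There 7.2% to 9.28% of all tested genes were higher and 9.29% to 10.9% lower. Dexamethasone 0.01 µM had 1 to 6 (4.05% to 6.22% of all genes higher and 5.72% to 7.87% lower). Hydrocortisone 10 µM had 1 to 9 (3.49% to 6.64% and 4.68% to 7.11%). On day 6 dexamethasone 1 µM had 0 to 2 (3.02% to 5.34% and 3.32% to 4.92%). Hydrocortisone 10 µM had 0 to 1 on that day (0.0952% to 0.5% and 0.107% to 0.53%). Dexamethasone against hydrocortisone at 0.01 µM had 0 to 1 (1.4% to 2.25% and 1.89% to 3.38%). The change of hydrocortisone 10 µM between days had 0 to 1 (2.55% to 4.66% and 1.68% to 2.95%). Depth limits NUSAP1 throughout and all members in dexamethasone 0.01 µM day 3 replicate 3.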
